A study of Caenorhabditis elegans and Caenorhabditis briggsae and Caenorhabditis remanei with 48 samples.

Results

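Aminoacyl-tRNA synthetases of C. elegans were examined in newly hatched (L1) larvae that had left starvation arrest and in larvae still held in it. The members are the C. elegans coding sequences that the study put under its synthetase keyword among those with more ribosome-protected fragments (RPFs, the pieces of mRNA covered by ribosomes) in developing animals. They were thus chosen by their RPF values in these same libraries, and other synthetases were not searched for here. The list holds 43 identifiers of the 23502 in either C. elegans table. All 43 stood in both tables, no pair had identical values, and all passed a minimum mean signal of 50 in both assays, as did 12115 coding sequences in all.

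An aminoacyl-tRNA synthetase joins an amino acid to the tRNA that reads its codons, and so supplies the charged tRNAs that every ribosome uses. The enzymes fall into unrelated classes, I and II, with differently built catalytic sites, and some carry a small nucleic acid-binding fold (the OB fold) that contacts the tRNA. Nematodes, like other animals, have largely separate sets for the cytoplasm and for mitochondria. L1 larvae that hatch without food stop growing and keep protein synthesis low until they are fed.

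Each state and assay had 3 libraries, so that 12 of the series' 48 libraries enter here. Developing animals were whole N2 larvae starved for 24 h at 20 C in S-complete medium and then fed HB101 bacteria (E. coli, 15 mg/mL) over 3 h, and diapause animals were frozen after the same starvation with no food. Batches 1 to 3 are numbered alike in both states. mRNA-seq measured poly(A) RNA, and ribosome profiling measured RPFs.

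For each coding sequence the tables hold 1 mean normalized signal per state and assay, so the spread between libraries is not given here, no test was run, and every difference below is one between the authors' means. The columns are lettered rather than named by state. They were read from the direction of the study's other lists: of 1533 identifiers outside the synthetases listed as higher in developing animals, 1533 had the larger RPF mean in the column taken as developing, against 0 of 569 listed as higher in diapause. In the mRNA table the same held for 52 of 52 identifiers listed with more mRNA and fewer RPFs, and for 0 of 130 listed with the opposite. Translation efficiency (TE) is the RPF mean over the mRNA mean of a coding sequence within a state. Because the assays were scaled separately, a TE has meaning only beside that of other coding sequences, whose median was 0.623 in developing animals and 0.616 in diapause (n = 12115). Signal is relative to the rest of the library, and in whole animals fewer cells of a type and less RNA per cell cannot be told apart.

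The identifiers name protein products and are not paired with gene names in the sources used here, so no member can be given its amino acid, its compartment or its chromosome, and tissue markers were not looked up. Products of 1 gene share reads. The 4 means of CE29495 and CE37225, of CE29472 and CE32719, of CE18363 and CE28261, and of CE05434 and CE33765 lay within 5% of each other, and these pairs may each be 1 measurement. At a tolerance of 20% the 43 identifiers formed 31 groups.

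The listed synthetases took a larger part of ribosome occupancy in fed larvae, which their selection by RPFs fixed in part. Their summed signal was 0.831% of all RPF signal in developing animals and 0.242% in diapause, a ratio of 3.43. Of all mRNA signal they made up 0.551% in developing animals and 0.291% in diapause, a ratio of 1.90. The share of RPFs was therefore above the share of mRNA in developing animals and below it in diapause. The selection bears on this contrast too, and identifiers that may share reads each add to these sums.

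Every member had more RPFs in developing animals, which the selection fixed. The median difference was 1.92 on the log2 scale (developing over diapause), against 0.01 over all coding sequences. At least 2-fold more RPFs were found for 40 members and at least 4-fold more for 20, beside 19.6% and 7.3% of all coding sequences, a comparison from which nothing is read because RPFs chose the list. The smallest RPF differences among the members were those of CE18363, CE28261 and CE25136, at 0.81, 0.82 and 0.96. CE18363 had an RPF mean of 1017 in developing animals and 582 in diapause. Coding sequences just outside the list were not identified here.

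At the other end were CE16317, CE06304 and CE24685. CE16317 had an RPF mean of 3611 in developing animals and 366 in diapause, a 9.85-fold difference. CE06304 had 4605 in developing animals and 556 in diapause, or 8.28-fold more. CE24685 had 4178 in developing animals and 606 in diapause, or 6.90-fold more. These similar RPF differences went with unlike mRNA: the mRNA of CE24685 and CE06304 was 3.73-fold and 2.64-fold higher in developing animals, while that of CE16317 was lower.

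**Figure D1:**
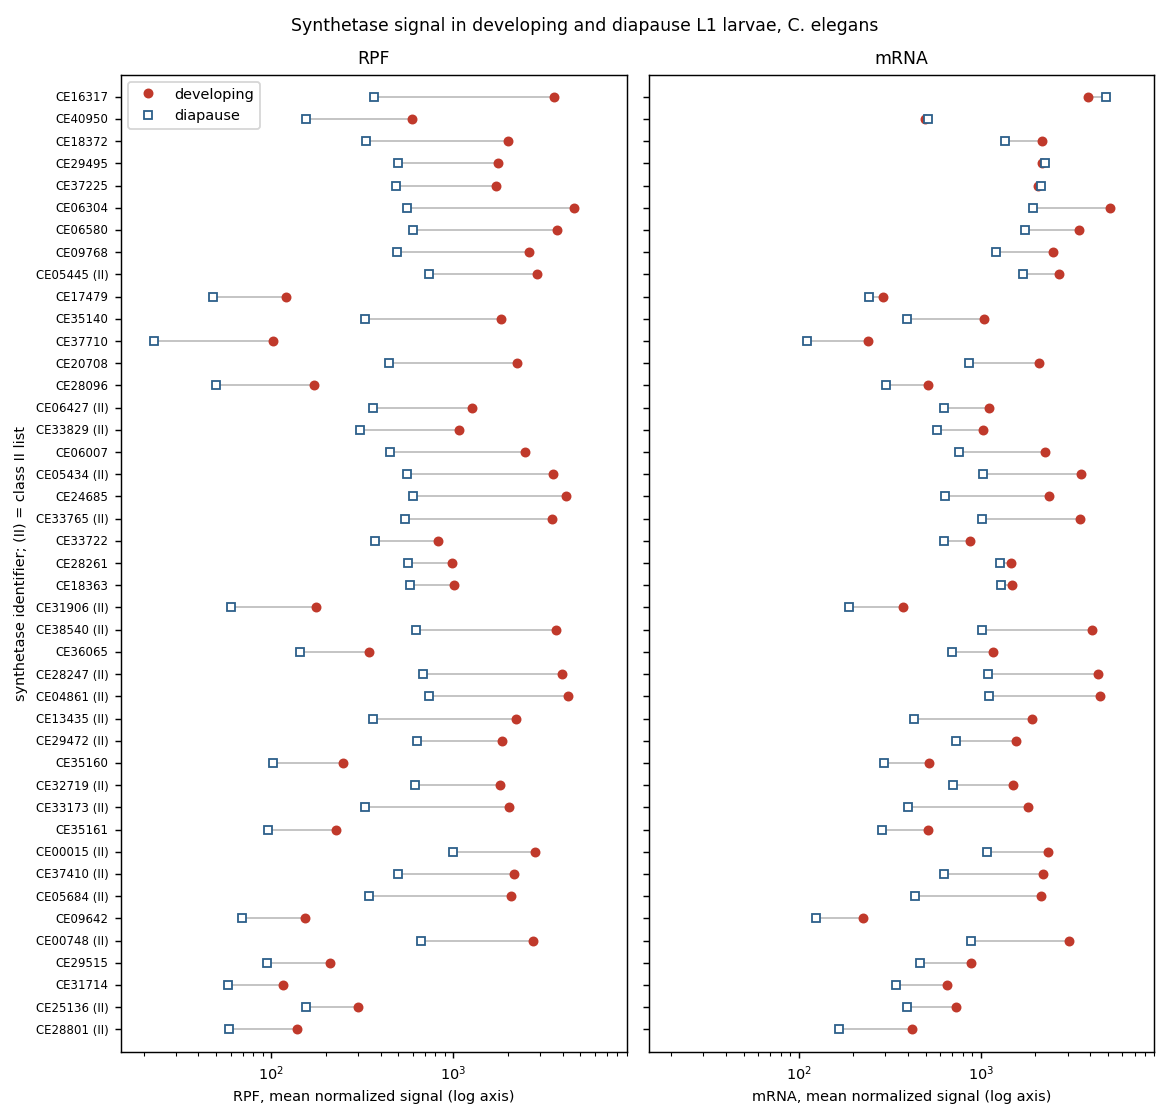
Mean normalized RPF signal (left) and mRNA signal (right) of the 43 synthetase identifiers on log axes, in developing (filled circles) and diapause (open squares) larvae, ordered from the largest difference in RPF per mRNA at the top. Each symbol is the authors' mean of 3 libraries and carries no error; every RPF pair opens to the right, while the mRNA pairs of CE16317, CE40950, CE29495 and CE37225 run slightly the other way.

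Most synthetases also had more mRNA in developing animals. mRNA was higher for 39 members and lower for 4, beside 52.4% of all coding sequences higher, and the median difference was 0.99 on the log2 scale, against 0.04 for all. A difference of at least 2-fold was met by 21 members, beside 14.3% of all, and 35 members passed 1.5-fold, beside 25.1% of all. Since the same animals and the same contrast chose the list, these counts describe the members and were not tested.

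The largest mRNA differences formed a compact group. CE05684 had an mRNA mean of 2137 in developing animals and 433 in diapause, a 4.93-fold difference. CE33173 had 1819 in developing animals and 400 in diapause (4.55-fold), and CE13435 had 1907 in developing animals and 428 in diapause (4.45-fold). All 3 are in the class II list, and their 4 means lay within 20% of each other along a chain, so they may share reads. CE38540, CE28247 and CE04861, a further set of class II identifiers with the OB fold that was singled out after its values were seen, followed at 4.05-fold each. These last 3 fall with CE05434 and CE33765 into 1 chain of identifiers within 20%, and may share reads too. For the 6 identifiers above 4-fold the RPF difference was somewhat larger still, between 5.78-fold and 6.20-fold.

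The 4 members with less mRNA after feeding were CE16317, CE29495, CE37225 and CE40950, of which CE29495 and CE37225 are nearly 1 measurement. CE16317 had an mRNA mean of 3894 in developing animals and 4889 in diapause, a log2 difference of -0.33. For the others it lay between -0.06 and -0.05, which is close to no difference: CE29495 had 2164 in developing animals and 2253 in diapause, and CE40950 had 496 in developing animals and 513 in diapause. Their RPFs were nevertheless between 3.52-fold and 9.85-fold higher in developing animals. None of the 4 is in the class II list.

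**Figure D2:**
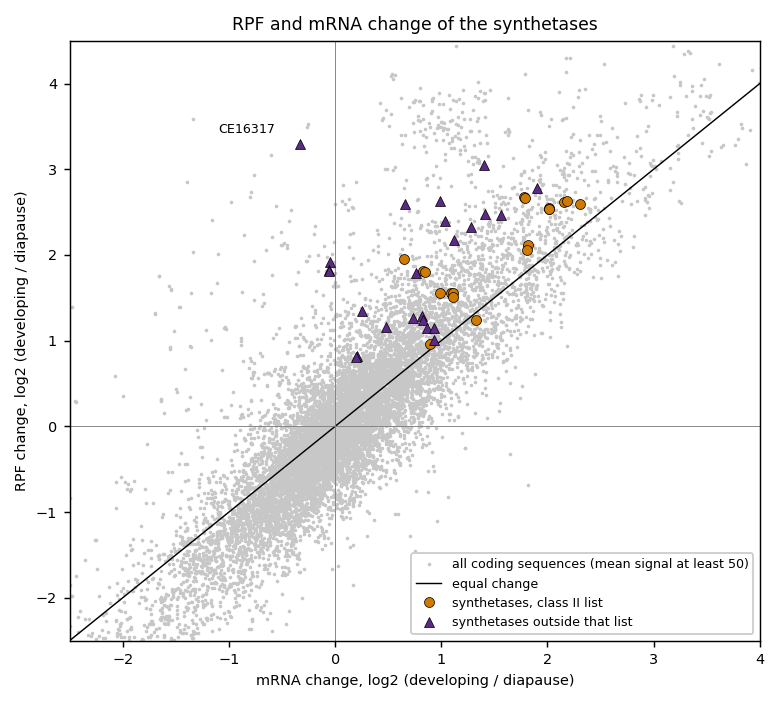
RPF difference (vertical) against mRNA difference (horizontal), both as log2 of developing over diapause, for class II synthetases (circles), the other synthetases (triangles) and all coding sequences with a mean signal of at least 50 (grey; points beyond the axes are not drawn). On the diagonal RPFs and mRNA differ by the same factor; 42 of the 43 synthetases lie above it, CE16317 farthest, and CE28801 just under it.

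RPF per mRNA was higher in developing animals for 42 of the 43 members, beside 44.8% of all coding sequences. This count depends on the scale: with each mean divided by the summed signal of its state and assay, which moves the median of all coding sequences to -0.36, it was 35, beside 22.8% of all. The median log2 difference in TE was 0.61, against -0.06 for all. At least 1.5-fold higher TE was found for 23 members and at least 2-fold for 14, beside 12.4% and 5.57% of all coding sequences. TE has RPFs as its numerator and RPFs chose the list, so higher TE is in part fixed by the selection, and nothing is read from these counts about the synthetases against other coding sequences.

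The range of TE differences was wide. CE16317 stood apart: its TE was 0.927 in developing animals and 0.0750 in diapause, a 12.4-fold difference. In diapause that ratio ranked at the 0.528 percentile of all coding sequences, and in developing animals at the 82.6 percentile. It was therefore among the least occupied mRNAs of arrested larvae relative to its abundance, and it was the only member with a TE difference above 4-fold.

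A group of other identifiers had differences in TE between 3-fold and 4-fold. CE40950 had a TE of 1.19 in developing animals and 0.305 in diapause (3.91-fold). CE18372 had 0.923 in developing animals and 0.242 in diapause (3.81-fold), and CE29495 had 0.814 in developing animals and 0.222 in diapause (3.67-fold), with CE37225 next to it at 3.66-fold. CE06304 and CE06580, of which the second was picked after its value was seen, followed at 3.14-fold and 3.13-fold. In developing animals each of these ratios was above the median of all coding sequences, and in diapause each was below it.

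At the low end TE hardly differed as deposited. On that scale CE28801, a class II identifier, was the 1 member with a lower TE in developing animals, 0.332 against 0.352 in diapause. CE25136 had 0.412 in developing animals and 0.394 in diapause, and CE31714 had 0.179 in developing animals and 0.170 in diapause. For these 3 the RPF difference as deposited was close to that of mRNA: CE28801 had 2.51-fold more mRNA and 2.37-fold more RPFs in developing animals. With means divided by summed signal, the log2 TE differences of CE28801, CE25136 and CE31714 were -0.39, -0.24 and -0.23. TE was then lower in developing animals for each of them. Their RPF means in diapause, from 58.0 to 155, were in the lower part of the members' range of 22.9 to 999.

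Split on the log2 scale, the difference in RPFs is the sum of the mRNA and TE differences. Compared with their signs, the TE term was the larger for 16 members and the mRNA term for 27. The signed TE term was the larger for 46.3% of all coding sequences. With means divided by summed signal it was the larger for 14 members, beside 37.8% of all. Where RPFs were lower in developing animals, the larger signed term can be the smaller in size. These shares therefore do not give how often TE made up most of a difference. As deposited, mRNA made up 88.9% of the difference and TE 11.1% for CE05684, whose TE difference of 0.29 became -0.01 when means were divided by summed signal. CE18372 had the opposite make-up, with 25.5% from mRNA and 74.5% from TE, and CE06304 was close to even at 45.9% and 54.1%. Over the 43 members the mRNA and TE differences ran against each other (r = -0.53, rho = -0.43), a description only, since TE holds mRNA in its denominator, RPFs chose the list and some identifiers share reads.

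**Figure D3:**
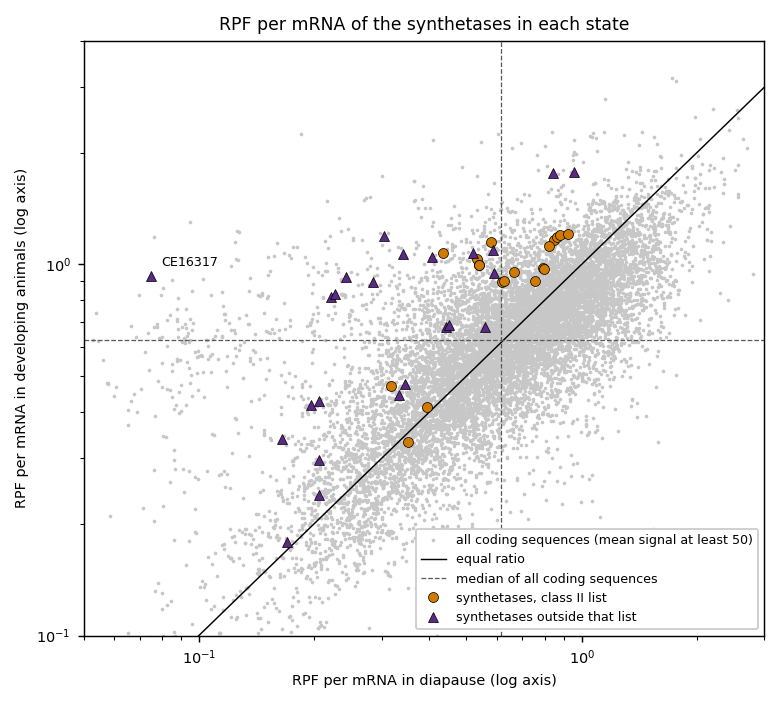
RPF per mRNA in developing animals (vertical) against diapause (horizontal) on log axes for class II synthetases (circles), the other synthetases (triangles) and all coding sequences with a mean signal of at least 50 (grey; points beyond the axes are not drawn). Dashed lines are the medians of all coding sequences, 0.623 and 0.616; most synthetases sit above the horizontal one, and a separate lower band of 11 lies at 0.475 or less in developing animals.

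Members also differed from each other in TE within a state. In developing animals their median TE was 0.927, with 32 members above the median of all coding sequences and 27 above its upper quartile. In diapause their median was 0.450, with 13 members above the median of all and 18 below its lower quartile. CE24685 was highest in both states, with 1.77 in developing animals and 0.957 in diapause. CE35140 was next in developing animals with 1.76, and had 0.840 in diapause. CE00015, a class II identifier with the OB fold, had 1.21 in developing animals and 0.919 in diapause, the second highest value in that state. A TE above 1 was found for 15 members in developing animals and for 0 in diapause, beside 12.7% of all coding sequences in developing animals and 18.2% in diapause. The list was chosen for more RPFs in developing animals than in diapause. The members' places against all coding sequences in each state are therefore in part fixed by the selection.

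TE in developing animals left a gap between 0.475 and 0.676. Below it were 11 identifiers, a group recognised after its values were seen: CE28801, CE25136 and CE31906 from the class II list, and CE31714, CE29515, CE36065, CE28096, CE17479, CE37710, CE35160 and CE35161 outside it. CE31714 was lowest at 0.179 and CE29515 next at 0.239. These 11 were also low in diapause, with a median of 0.206 against 0.569 for the other 32 members. Their mRNA was higher in developing animals without exception, by a median of 0.90 on the log2 scale. Their median RPF difference was 1.26, against 2.36 for the other 32. Their signal was low as well: the median RPF mean in diapause was 60.4, with 22.9 the lowest, against a median of 498 for the other 32. The median mRNA mean in developing animals was 511, against 2164. CE35160 and CE35161 lie within 20% of each other and may share reads.

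The order of members by TE was broadly kept between the states (r = 0.64 and rho = 0.71 on log2 TE over the 43 members, as a description). The spread of log2 TE over members was 0.75 (SD over identifiers, not over libraries) in developing animals and 0.85 in diapause. For all coding sequences it was 0.80 in developing animals and 0.91 in diapause.

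Class offered a further view. The study's list of the conserved region of class II enzymes holds 19 of the members, and 24 are outside it, a set that may mix class I enzymes with class II enzymes lacking that entry. Class II identifiers differed more in mRNA and less in TE: the median mRNA difference was 1.78, against 0.82 for the others, and the median TE difference 0.46, against 1.04. mRNA was at least 2-fold higher for 14 of 19 class II identifiers, against 7 of 24 others. TE was at least 1.5-fold higher for 5 of 19, against 18 of 24, and at least 2-fold higher for 1 of 19, against 13 of 24. Repeated products may weigh on the mRNA contrast. The longer class II chains within 20% (CE04861, CE05434, CE28247, CE33765 and CE38540, and CE05684, CE13435 and CE33173) hold mRNA differences from 1.78 to 2.30. The mRNA medians were not recomputed with such identifiers counted once. So counted, the median TE difference of class II identifiers less that of the others was -0.65, in place of -0.58.

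The class II identifier with the largest TE difference was CE05445, named here after its values were seen, with 1.07 in developing animals and 0.433 in diapause. Class II identifiers were nearer the other members in total RPF difference, with medians of 2.05 and 1.82, and 10 in each set passed 4-fold. In diapause their median TE was 0.628, against 0.320 for the others, and in developing animals 0.998, against 0.822. The sets overlapped in every one of these measures, several class II identifiers may be products of 1 gene, and no test of the split was made.

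The OB-fold list held 7 members, 6 of them also class II. Its median RPF difference was 2.53, its median mRNA difference 2.02 and its median TE difference 0.52. These medians are values of CE04861, CE38540 and CE28247, which may share reads, and they were not recomputed with such identifiers counted once. Among the remaining members of the list, mRNA differences ran from 0.99 for CE31906 to 2.30 for CE05684. CE06007, the 1 member of this list outside class II, is named here after its values were seen, and had a TE of 1.10 in developing animals and 0.588 in diapause. Of the 7, CE31906 alone was in the band of low TE.

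Other lists of the same kind, each chosen by the study on the RPFs of these libraries and none sharing an identifier with the synthetases, give a setting for these values. Like the synthetases, translation initiation factors (n = 32), which bring the first tRNA and the ribosome to the start codon, had more RPFs in developing animals (median 1.92 for the synthetases and 2.14 for the factors). The mRNA part was smaller in the synthetases, 0.99 against 1.53, and the TE part larger, 0.61 against 0.24. TE was higher in developing animals for 42 of 43 synthetases and 26 of 32 factors, and with means divided by summed signal for 35 of 43 and 15 of 32, where the factors' median turned to -0.059. In diapause the median TE of the synthetases was 0.450 and that of the factors 0.708.

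tRNA processing enzymes (n = 17), which trim and modify the molecules that synthetases charge, had a median TE difference of 0.48. Their TE was higher in 16 of 17, or in 13 of 17 with a median of 0.17 when means were divided by summed signal. Of the 17 identifiers, 15 pass the minimum mean of 50. Their median TE was 0.578 in developing animals and 0.391 in diapause. Proteasome subunits (n = 29), which build the protease that degrades tagged proteins, had more mRNA in developing animals at nearly the same TE, with medians of 0.87 and 0.06. Their TE was higher in 16 of 29, or in 4 of 29 with a median of -0.25 when means were divided by summed signal, and 0 passed 1.5-fold as deposited.

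The ribosomal subunit lists had larger median TE differences than the synthetases, but both lists were split. The large-subunit list (n = 14) had a median TE difference of 1.91 and the small-subunit list (n = 12) of 2.51, beside an mRNA difference of 1.15 and 1.09 that was close to the synthetases' 0.99. TE differences under the synthetases' median of 0.61 were found for 5 of 14 large-subunit and 4 of 12 small-subunit identifiers. Their mRNA means in developing animals ran from 659 to 42368 (large subunit) and from 680 to 57013 (small subunit). The compartment of these identifiers was not looked up, and the lists need not hold every ribosomal protein. The paper describes ribosomal protein genes as up-regulated mainly through translation. The split is therefore described for these lists only, and its cause was not tested. Median TE in diapause was 0.126 and 0.112 in these lists and 0.450 in the synthetases. Of the synthetases, CE16317 alone had a diapause TE as low as those medians, at 0.0750, and its TE difference of 3.63 exceeded the highest in either list, 3.03 and 2.99.

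**Figure D4:**
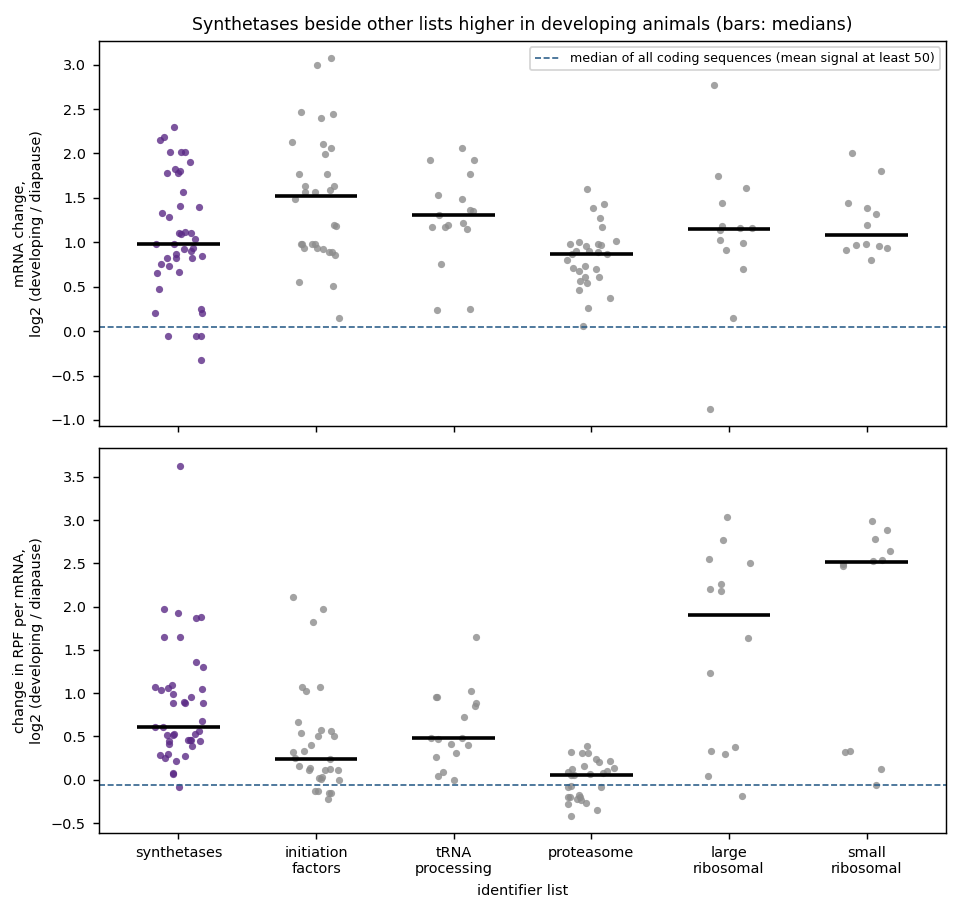
mRNA difference (top) and difference in RPF per mRNA (bottom), as log2 of developing over diapause, for the synthetases and 5 other lists of coding sequences; each point is an identifier, the bars are medians and the dashed line is the median of all coding sequences. The synthetases' median TE difference of 0.61 is above those of initiation factors, tRNA processing enzymes and proteasome subunits and below those of both ribosomal lists.

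The study's KEGG pathway list of aminoacyl-tRNA biosynthesis holds 39 of the 43 members and 5 identifiers that are not members. CE37710, CE09642, CE29515 and CE31714 are the members absent from it. The 5 additional identifiers, CE27621, CE41029, CE16514, CE40134 and CE40133, had RPF differences between 0.64 and 2.26 and mRNA differences between 0.16 and 1.19. Their TE was higher in developing animals in 5 of 5, with a median difference of 0.51, though 3 of the 5 pass the minimum mean of 50. CE40134 and CE40133, which have similar values and may share reads, had RPF means of 52.2 and 38.0 in developing animals, against 11.3 and 7.91 in diapause.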

How the data were processed

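mRNA and RPFs were sequenced from the same cultures of developing and diapause L1 larvae. According to the paper's methods, trimmed reads were aligned by the authors to WS230 genome and coding sequences using Bowtie 0.12.7 (version from the submitters' processing notes), reads with more than 1 genomic place were dropped, and DESeq compared the states. The signal values the authors deposited are read numbers divided by size factors and averaged over the 3 libraries of a state. The tables also hold the authors' fold changes, p-values, adjusted p-values and variance ratios, none of which were used. Depth of each library was not analysed here.

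Ratios, log2 differences, shares and medians were computed with Python 3.11.15, pandas 2.3.3 and numpy 2.4.6, with no pseudocount, and checked on simulated tables. Background values cover coding sequences with a mean of at least 50 over the states in both assays. Percentages of signal refer to the sum over a table with identical rows counted once. Reads that map within several products of 1 gene count for each, and 1256 rows had the same means as another row.

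Named identifiers were the 3 highest and 3 lowest in RPF, mRNA and TE difference and in TE of each state, any that differed against the median member, and those within 5% of another, 24 in all. Other names were added after values were seen and are marked so, apart from lists given in full. The members and lists were chosen with earlier results of these data known. The 6 tables of other species were not used.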

Additional observations from a re-analysis of the deposited data

How the results depend on the processing

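The median RPF difference of the synthetases, 1.92, was 1.82 with identifiers within 20% counted once, 1.80 with a pseudocount of 10 and 1.47 with means divided by summed signal. Under that division the medians were 0.85 for mRNA and 0.31 for TE, and the median TE differences of other lists were -0.059 for initiation factors, 0.17 for tRNA processing, -0.25 for proteasome, 1.60 and 2.21 for the large and small ribosomal subunits and 0.20 for the additional KEGG identifiers. It left 31 synthetases at least 2-fold higher in RPFs, 16 in mRNA and 18 at least 1.5-fold higher in TE, beside 12.9%, 11.9% and 6.74% of all coding sequences, and moved all 72 values of the named members. It shifts every coding sequence of an assay by the same amount, so differences between members and lists stay as they were. Counting identifiers within 20% once gave a median TE in diapause of 0.394, and counting those within 5% once gave a TE difference of 1.63 for the large ribosomal subunit. At 1.5-fold 35 members passed for mRNA, beside 25.1% of all, and at 2-fold 14 passed for TE, beside 5.57%. A pseudocount of 10 gave -0.43 in place of -0.58 for the median TE difference of class II identifiers less that of the others, 0.40 for the additional KEGG identifiers and -0.02 in place of 0.07 for CE31714. Minimums of 10 or none, centring on the median of all, counting every row and leaving out the 10 highest rows moved no median or share of the synthetases by more than 0.1 on the log2 scale. No median or count of the synthetases changed direction under these settings. Single libraries could not be left out, since the tables hold means. No paired analysis was possible for the same reason, since a mean over the libraries of a state holds no pairs. Differences near 0, such as the mRNA of CE40950, were not set against the variation between libraries. Chosen after seeing the data were identifiers within 20% counted once, division by summed signal for the class comparison and the lists, that division and centring for the counts of higher TE and mRNA, and each alternative for single named members.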
